A study of Homo sapiens with 6 samples.

Results

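Transcripts of 39 complement and acute phase genes, chosen by name from the 58735 genes of the expression table, were compared between Hep-G2 cells depleted of calmegin and their controls. Of the 39 genes, 27 reached the level needed for testing and 12 did not. Hep-G2 is an established human liver tumour line, which the study used as a hepatocellular carcinoma line. The sh-CLGN group (n = 3 libraries) received a lentivirus with 1 short hairpin RNA against CLGN, the gene of calmegin, an endoplasmic reticulum chaperone, and the sh-NC group (n = 3 libraries) received a negative control hairpin. Per the study's methods, transduced cells were selected with puromycin, and no single clone is named. The labels give the treatment as shCLGN or shcontrol, the genotype as CLGN knock down or WT, and the same batch entry, 0DAY, for all 6 libraries. No other treatment is named in them. Because each group had 1 hairpin, the effect of the hairpin and that of CLGN loss cannot be told apart. The labels name no separate cultures, so p-values measure the spread between these libraries, which may be technical.

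Complement is a cascade of plasma proteases and binding proteins that mark and lyse cells. The classical pathway starts with C1 and cleaves C4 and C2, and the lectin pathway starts with mannose-binding lectin and its proteases. The alternative pathway amplifies through C3 and factor B. All lead to C5 and to the terminal complex built from C5b to C9, and regulators in plasma and on cell membranes limit each step. Acute phase proteins are plasma proteins whose secretion by the liver changes in inflammation, largely under interleukin-6 and interleukin-1. Hepatocytes are the main source of both sets in plasma, and most of these proteins are folded in the endoplasmic reticulum.

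The libraries held 14955816 to 16244639 reads, recovered from the deposited FPKM values, which scale reads by gene length and a library size. That library size was not the read total: it was 0.933 to 0.953 of it in sh-NC and 1.07 to 1.08 of it in sh-CLGN, so the denominator differed between the groups. A read fell on 23578 to 23793 genes per sh-NC library and on 26814 to 27006 genes per sh-CLGN library, and the part of these 2 differences in the results was not tested beyond the scalings given below. Values per library are listed in the order of replicates 1, 2 and 3. CLGN was 24.1, 21.0 and 26.1 FPKM in the control libraries and 9.48, 8.88 and 8.60 FPKM in the sh-CLGN libraries, and it passed the test (log2 fold change -1.31, limma adjusted p = 8.35e-06). The summed level of 11 hepatocyte markers ran from 7882 to 8145 FPKM in the controls and from 8113 to 8704 FPKM in sh-CLGN, and all 11 were tested. The summed level of 8 fibroblast markers ran from 7.17 to 8.51 FPKM in the controls and from 48.5 to 49.9 FPKM in sh-CLGN. Of its 5 tested markers all were higher in sh-CLGN, but COL1A1, COL3A1 and LUM were under 1 FPKM in every control library and entered the test through sh-CLGN only. COL1A2 passed the filter in both groups, at 4.20 FPKM in sh-NC and 38.7 FPKM in sh-CLGN (log2 fold change 2.94). Of the untested markers, DCN and THY1 had at most 1 read in any library. PDGFRA stood at 0.420 FPKM in sh-NC and 0.951 FPKM in sh-CLGN, without overlap. Of 7 macrophage and leukocyte markers only LYZ was tested. LYZ averaged 72.9 FPKM across controls, fell to 64.0 FPKM after knockdown and passed as lower (log2 fold change -0.19, limma adjusted p = 0.0262). MARCO was higher after knockdown without overlap, with 16 to 21 reads against 8 to 10 for the controls. PTPRC had at most 4 reads, and CD163 and MS4A1 had 0. Of 5 endothelial markers only PECAM1 was tested, and it passed as lower (log2 fold change -0.28, limma adjusted p = 0.00778). CDH5 was lower after knockdown without overlap, with 4 to 10 reads against 21 to 30 for the controls, and KDR had 0 reads. The part of the fibroblast list in the results below was not tested. In bulk RNA a smaller share of producing cells and less RNA per cell cannot be told apart.

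Upstream sequences of 4 genes are shown here, because C6, C4BPB and MBL2 moved past both thresholds of the test described below and C4BPA is the close neighbour of C4BPB and went the other way. The sequences are the 250 bases before the RefSeq start site, on the coding strand, 5′ to 3′, in GRCh38.p14. They lie at chr5:41261470-41261719 (minus strand, C6), chr1:207088610-207088859 (plus strand, C4BPB), chr1:207103983-207104232 (plus strand, C4BPA) and chr10:52772785-52773034 (minus strand, MBL2). Capitals mark matches to the motifs searched.
C6: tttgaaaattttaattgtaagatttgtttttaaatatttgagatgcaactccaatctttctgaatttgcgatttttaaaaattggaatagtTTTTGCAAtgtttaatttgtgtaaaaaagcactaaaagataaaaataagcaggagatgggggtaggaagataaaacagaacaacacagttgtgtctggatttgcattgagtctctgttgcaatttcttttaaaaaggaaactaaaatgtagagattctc
C4BPB: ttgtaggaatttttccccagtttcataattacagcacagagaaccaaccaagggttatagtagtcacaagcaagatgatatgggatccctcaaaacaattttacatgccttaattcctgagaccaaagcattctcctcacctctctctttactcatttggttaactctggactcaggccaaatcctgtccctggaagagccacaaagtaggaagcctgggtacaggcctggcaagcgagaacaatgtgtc
C4BPA: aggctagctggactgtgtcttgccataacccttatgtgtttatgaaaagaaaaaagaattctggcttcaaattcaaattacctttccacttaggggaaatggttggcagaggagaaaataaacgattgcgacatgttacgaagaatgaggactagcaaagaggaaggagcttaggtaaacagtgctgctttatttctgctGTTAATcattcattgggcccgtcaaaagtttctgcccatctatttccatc
MBL2: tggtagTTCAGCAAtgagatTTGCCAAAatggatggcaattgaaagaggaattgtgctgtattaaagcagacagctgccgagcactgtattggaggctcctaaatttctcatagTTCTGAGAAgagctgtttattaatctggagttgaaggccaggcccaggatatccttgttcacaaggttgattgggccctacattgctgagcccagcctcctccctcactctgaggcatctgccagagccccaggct

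The RefSeq start of MBL2 lies 1084 bases upstream of the gene start in the deposited table, and those of the other 3 lie within 31 bases of it. Of the 39 genes, 26 had an entry in the RefSeq promoter table. LBP, HP and C1S had none. On both strands of the window from 250 bases before to 50 bases after the start, a C/EBP site was searched as TTGCNNAA, a STAT site as TTCNNNGAA, an NF-kB site by its consensus and an HNF1 site by the letters GTTAAT. A C/EBP match was present in 6 of the 26 promoters (23.1%) and in 10.6% of all 27305 promoters. A STAT match was present in 6 (23.1%) and in 7.88% of all, an NF-kB match in 2 (7.69%) and in 10.8% of all, and an HNF1 match in 3 (11.5%) and in 6.89% of all. C/EBP and STAT factors are the classical mediators of the hepatic acute phase, and HNF1 is a hepatocyte factor. The sequence of MBL2 holds C/EBP matches from -244 to -237 and from -230 to -223 and a STAT match from -136 to -128. That of C6 holds a C/EBP match from -159 to -152, and that of C4BPA an HNF1 match from -50 to -45. C4BPB had no match in its window, as had 13 of the 26 promoters in all.

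Differences were tested with limma on log2(FPKM + 1), and all log2 fold changes are sh-CLGN minus sh-NC on that scale, which understates the change of low genes. Intervals are not adjusted for the number of genes. At an adjusted p of at most 0.05, 10 of the 27 tested genes were higher in sh-CLGN (37.0%) and 10 were lower (37.0%), where 26.7% of all 13074 tested genes were higher and 39% were lower. With a log2 difference of 1 or more in size as well, C6, C4BPB and C1S were higher (11.1%, against 3.09% of all tested genes) and MBL2, LBP and HP were lower (11.1%, against 3.19%). C6 and LBP passed the filter on low values through 1 group only and so had to differ, and the counts past both thresholds are not read against that background. The groups did not overlap for 22 of the 27 genes (81.5%), and for 70.2% of all tested genes. The median log2 fold change of the 27 genes was -0.07 and that of all tested genes -0.08, and the median absolute value was 0.53 against 0.34. The split depended on the scaling. Scaling to total reads gave 13 higher and 8 lower genes, while 37.9% of all tested genes were then higher and 26.2% lower. Quantile normalization gave 14 and 8, with 30.6% of all tested genes higher and 32.4% lower.

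**Figure D1:**
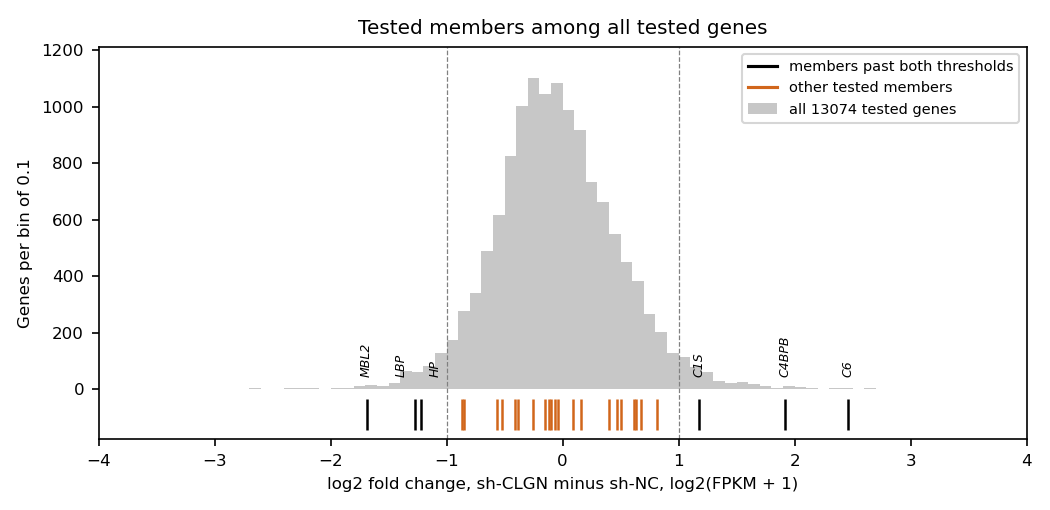
Number of tested genes (y axis) per bin of 0.1 of the log2 fold change, sh-CLGN minus sh-NC, on log2(FPKM + 1) (x axis), for all 13074 tested genes (grey), with 1 tick below for each of the 27 tested complement and acute phase genes (black, past both thresholds, orange, others). C6 at 2.46 and MBL2 at -1.69 are the outermost ticks, and dashed lines mark -1 and 1.

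By summed level the genes were unequal. AMBP, VTN, C3, ITIH2, CLU and ORM1 each stood above 100 FPKM in sh-NC, 6 genes lay between 10 and 100, 14 between 1 and 10, and 13 under 1 FPKM. The 39 genes summed to 3338, 3200 and 2981 FPKM in the control libraries and to 2251, 2192 and 2258 FPKM in the sh-CLGN libraries. The groups did not overlap, and the sh-CLGN mean was 70.4% of the sh-NC mean. These sums use the deposited FPKM, whose denominator differed between the groups, and were not computed under other scalings. AMBP alone made up 46.6% ± 0.742 of the summed control level and 36.5% ± 0.341 of that in sh-CLGN (SD, n = 3). C6 stood at rank 32 of the 39 by level in sh-NC and at rank 16 in sh-CLGN, C4BPB moved from rank 15 to 10 and C1S from 22 to 13, while MBL2 went from rank 14 to 25 and LBP from 23 to 32.

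**Figure D2:**
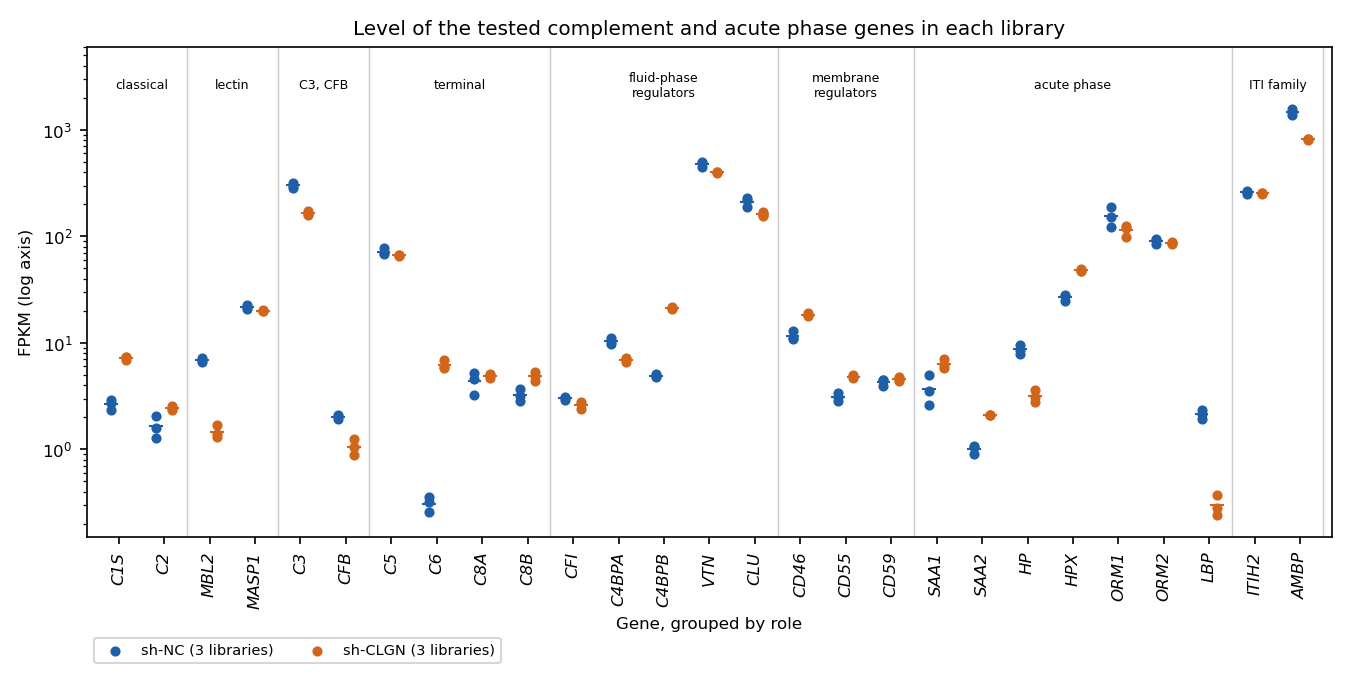
FPKM on a log axis (y axis) of the 27 tested genes (x axis, grouped by role, ITI for inter-alpha-trypsin inhibitor), with a point for each library and a short line at the mean of the 3 sh-NC (blue) and 3 sh-CLGN (orange) libraries. Levels span from 0.310 FPKM for C6 in sh-NC to 1478 FPKM for AMBP in sh-NC.

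Among the classical pathway genes, C1S and C2 were tested and both rose. C1S encodes the protease of the C1 complex that cleaves C4 and C2. It was 2.72, 2.33 and 2.91 FPKM in the control libraries and 7.42, 6.93 and 7.41 FPKM in the sh-CLGN libraries. Every sh-CLGN library lay above every sh-NC library, at 2.73 times the control mean (log2 fold change 1.18, SE 0.0756, limma adjusted p = 9.74e-06). C1S (ENSG00000182326, chromosome 12, 6988259 to 7071032, plus strand, GRCh38) overlaps LPCAT3 on the opposite strand and EMG1 on its own. In sh-NC and sh-CLGN, LPCAT3 had means of 9.18 and 4.93 FPKM, and EMG1 had means of 12.4 and 9.90 FPKM. The part of these genes in the C1S values was not tested. The partner of C1S is C1R, whose protease activates C1s. C1R had 61 to 65 reads in sh-NC and 97 to 99 reads in sh-CLGN and was under the filter. With the filter lowered to a mean of 0.1 FPKM, C1R also passed, at a log2 fold change of 0.22 (limma adjusted p = 0.0429). C1R overlaps C1RL by 3021 bases on its own strand, and C1RL stood at 12.9 FPKM in sh-NC and 14.7 FPKM in sh-CLGN. The part of C1RL in the C1R values was not tested. C2, the zymogen of the C3 convertase protease, rose from 1.64 ± 0.387 to 2.46 ± 0.116 FPKM (SD, n = 3), a log2 fold change of 0.40 (limma adjusted p = 0.0139), although this call was lost without a filter (adjusted p = 0.0528). C4A and C4B are near-identical copies of the C4 gene whose reads may be split between them. They had 76 to 105 and 48 to 54 reads in the controls, and 35 to 80 and 34 to 53 reads after knockdown, and neither was tested at the filter used. At a mean of 0.1 FPKM neither passed, at -0.38 for C4A (adjusted p = 0.0504) and -0.13 for C4B (adjusted p = 0.277).

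In the lectin pathway the recognition gene MBL2 and the protease gene MASP1 parted. MBL2, which encodes mannose-binding lectin (ENSG00000165471; chromosome 10, 52765380 to 52771700, minus strand), was 6.97, 6.64 and 7.24 FPKM in the control libraries and 1.30, 1.71 and 1.39 FPKM in the sh-CLGN libraries. The groups did not overlap, and sh-CLGN held 21.1% of the control level (log2 fold change -1.69, SE 0.0802, limma adjusted p = 2.96e-06). MASP1, the protease that circulates with it, was 20.9, 21.9 and 22.5 FPKM in the control libraries and 20.2, 19.8 and 19.9 FPKM in the sh-CLGN libraries. The libraries of MASP1 did not overlap, yet the difference of -0.12 did not pass the test (95% interval -0.23 to -0.01, limma adjusted p = 0.0573). Without sh-NC replicate 1 it did (-0.15, adjusted p = 0.0401). MASP2, which cleaves C4 and C2, had 13 to 18 reads in the controls and 41 to 75 in sh-CLGN and was under the filter. At a mean of 0.1 FPKM it passed with a log2 fold change of 0.51 (limma adjusted p = 0.0135). It overlaps the antisense gene AL109811.3, which stood at 0.160 FPKM in sh-NC and 1.41 FPKM in sh-CLGN, and the strandedness of counting is not stated, so the 2 cannot be told apart.

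Both genes of C3 and the alternative pathway fell. C3, the central component cleaved by every convertase (ENSG00000125730; chromosome 19, 6677704 to 6730562, minus strand), was 299.0, 317.0 and 286.5 FPKM in the control libraries and 157.4, 163.4 and 173.5 FPKM in the sh-CLGN libraries. All sh-CLGN libraries lay below all controls, at 54.8% of the control mean (log2 fold change -0.86, SE 0.0585, limma adjusted p = 1.22e-05). CFB, which encodes factor B, the protease of the alternative C3 convertase, fell from 2.03 ± 0.0808 to 1.06 ± 0.180 FPKM (SD, n = 3, log2 fold change -0.56, limma adjusted p = 9.88e-04). C2 and CFB are paralogs that lie head to tail and overlap by 23 bases, and they moved in opposite directions. The ratio of C2 to CFB was 1.06, 0.615 and 0.768 in the control libraries and 1.89, 2.81 and 2.44 in the sh-CLGN libraries, without overlap.

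The terminal components held the gene that rose furthest. C6 (ENSG00000039537; chromosome 5, 41142234 to 41261438, minus strand), a subunit of the membrane attack complex that binds C5b, was 0.257, 0.318 and 0.355 FPKM in the control libraries and 5.96, 6.89 and 5.84 FPKM in the sh-CLGN libraries. These values rested on 17 to 26 reads in sh-NC and 447 to 535 reads in sh-CLGN, so the control level is the less certain of the pair. The ratio of means was 20.1 and the log2 fold change was 2.46 (SE 0.0846, limma adjusted p = 1.07e-06). C6 passed the filter on low values through sh-CLGN only and so had to differ, and its p-value is no separate support. C5, the most abundant terminal gene, was 68.3, 69.3 and 77.0 FPKM in the control libraries and 65.6, 66.8 and 67.5 FPKM in the sh-CLGN libraries. The C5 difference of -0.10 did not pass (95% interval -0.23 to 0.03, limma adjusted p = 0.150), and the call depended on the setting. C5 passed as lower with the GC trend removed (-0.33, adjusted p = 1.28e-04) and as higher with quantile normalization (0.20, adjusted p = 0.0288). C8A and C8B encode 2 chains of C8 and lie 10988 bases apart on opposite strands. C8B rose from 3.24 ± 0.437 to 4.87 ± 0.510 FPKM (SD, n = 3, log2 fold change 0.47, limma adjusted p = 0.00331), whereas C8A, at 4.35 ± 1.02 and 4.90 ± 0.236 FPKM (SD, n = 3), did not pass (0.16, 95% interval -0.15 to 0.46, adjusted p = 0.318). Whether the 2 changes differ was not tested. C8G, the third chain, had 4 to 15 reads in every library and did not pass with the lowered filter (adjusted p = 0.995). C9, which forms the pore, had 0 reads in each sh-NC library and 0 to 2 in sh-CLGN, under the floor of 3 reads in both groups, and DAB2, which overlaps C9 on the same strand, stood at 9.19 and 17.1 FPKM.

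Of the fluid-phase regulators, C4BPB rose and C4BPA, VTN and CLU fell, with VTN at 0.14 under quantile normalization. C4BPA and C4BPB encode the alpha and beta chains of C4b-binding protein, the plasma inhibitor of the C4b2a convertase, and the beta chain also binds protein S. C4BPB (ENSG00000123843; chromosome 1, 207088842 to 207099993, plus strand) was 5.08, 4.79 and 4.86 FPKM in the control libraries and 21.4, 20.7 and 21.9 FPKM in the sh-CLGN libraries. It stood at 4.34 times the control mean (log2 fold change 1.92, SE 0.0508, limma adjusted p = 4.15e-07), from 225 to 242 reads in the controls and 1094 to 1166 in sh-CLGN. C4BPA (ENSG00000123838), whose start lies 4268 bases beyond the end of C4BPB on the same strand, was 9.75, 10.5 and 11.01 FPKM in the control libraries and 6.98, 7.25 and 6.57 FPKM in the sh-CLGN libraries. It fell to 66.5% of the control mean (log2 fold change -0.52, SE 0.0635, limma adjusted p = 2.03e-04). The ratio of C4BPB to C4BPA per library was 0.521, 0.456 and 0.441 in the control libraries and 3.06, 2.86 and 3.33 in the sh-CLGN libraries. By FPKM, the alpha chain transcript thus stood higher in every control library and the beta chain transcript in every sh-CLGN library. FPKM takes 1 length per gene, 3219 bases for C4BPB and 2441 bases for C4BPA. The lengths of the expressed transcripts are not given, so the order of the 2 chains within a group is uncertain. C4BPA had 332 to 416 reads in the controls and 259 to 290 in sh-CLGN.

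**Figure D3:**
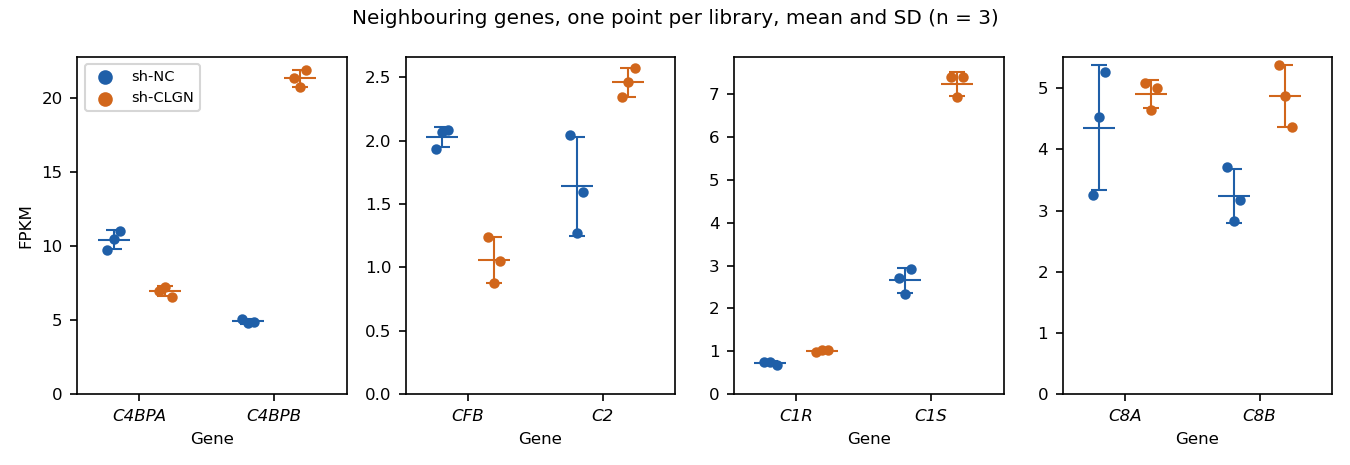
FPKM (y axis, from 0) of 4 pairs of neighbouring genes (x axis) in each sh-NC (blue) and sh-CLGN (orange) library, with the mean and SD (n = 3 per group). C4BPA and CFB lie lower and C4BPB and C2 higher in all 3 sh-CLGN libraries, and C1S lies higher at 7.25 FPKM against 1.01 FPKM for C1R.

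VTN, vitronectin, which blocks insertion of the terminal complex, was the most abundant regulator, at 500.5, 488.3 and 448.7 FPKM in the control libraries and 405.6, 396.2 and 399.2 FPKM in the sh-CLGN libraries. The libraries did not overlap and VTN passed the test at -0.26 (limma adjusted p = 0.00389), but it lost the call with total reads (-0.06) and with the GC trend removed (-0.02), and it stood at 0.14 under quantile normalization. CLU, clusterin, another inhibitor of the terminal complex, fell from 211.2 ± 21.1 to 161.2 ± 6.59 FPKM (SD, n = 3, log2 fold change -0.38, limma adjusted p = 0.00283), and under quantile normalization the difference was -0.07 (adjusted p = 0.396). CFI, the protease that degrades C3b and C4b, was 3.01 ± 0.106 and 2.61 ± 0.191 FPKM (SD, n = 3) and did not pass at -0.15 (adjusted p = 0.0925). CFI passed with the GC trend removed (-0.31, adjusted p = 0.00622) and with quantile normalization (-0.21, adjusted p = 0.0267), and stood at -0.01 with total reads. CFHR3, a relative of factor H, had 0 reads in sh-NC and at most 1 in sh-CLGN.

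The membrane regulators, which guard the cell's own surface, were low to moderate in level, and 2 of the 3 rose. CD46, a cofactor for factor I, was 11.2, 10.8 and 12.9 FPKM in the control libraries and 17.8, 18.4 and 18.98 FPKM in the sh-CLGN libraries. All sh-CLGN libraries lay above all controls (log2 fold change 0.62, SE 0.0711, limma adjusted p = 1.54e-04). CD55, which dissociates C3 convertases, rose from 3.11 ± 0.255 to 4.83 ± 0.157 FPKM (SD, n = 3, log2 fold change 0.50, adjusted p = 3.80e-04). CD59, which blocks C9 at the membrane, was 4.27 and 4.59 FPKM on average, with overlapping libraries and a difference of 0.09 that did not pass (95% interval -0.07 to 0.24, adjusted p = 0.289). CD59 passed with total reads (0.25, adjusted p = 0.0157) and with the GC trend removed (0.16, adjusted p = 0.0340).

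Of the 9 acute phase proteins in the narrower sense, SAA1, SAA2 and HPX rose, LBP, HP and ORM1 fell, ORM2 did not pass, and CRP and SAA4 were not tested. LBP, lipopolysaccharide-binding protein (ENSG00000129988; chromosome 20, 38346356 to 38377023, plus strand), was 2.34, 2.13 and 1.94 FPKM in the control libraries and 0.240, 0.373 and 0.284 FPKM in the sh-CLGN libraries. The groups did not overlap, on 59 to 64 reads in the controls and 8 to 12 in sh-CLGN, and the control mean was 7.14 times the sh-CLGN mean (log2 fold change -1.27, SE 0.0960, limma adjusted p = 2.01e-05). LBP passed the filter on low values through sh-NC only and so had to differ, and its p-value is no separate support. HP, haptoglobin, which binds free hemoglobin (ENSG00000257017; chromosome 16, 72054592 to 72061055, plus strand), was 9.64, 7.91 and 8.56 FPKM in the control libraries and 3.61, 2.78 and 3.12 FPKM in the sh-CLGN libraries. It stood at 36.4% of the control (log2 fold change -1.22, SE 0.0954, limma adjusted p = 2.33e-05). HP lies wholly within TXNL4B on the opposite strand, which fell from 20.4 ± 0.351 to 9.16 ± 0.865 FPKM (SD, n = 3, log2 fold change -1.08, limma adjusted p = 8.68e-06). Without a stated strand setting the reads of HP and TXNL4B cannot be told apart, and HP also shares sequence with HPR, which stood at 8.93 ± 0.903 and 6.50 ± 0.222 FPKM (SD, n = 3).

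HPX, hemopexin, which binds free heme, moved the other way from haptoglobin, from 26.8 ± 1.94 to 47.9 ± 1.24 FPKM (SD, n = 3, log2 fold change 0.82, SE 0.0607, limma adjusted p = 1.88e-05). SAA1 and SAA2 encode the inducible serum amyloid A proteins and are near-identical, so reads may be split between them. SAA1 rose from 3.72 ± 1.23 to 6.38 ± 0.655 FPKM (SD, n = 3, log2 fold change 0.67, adjusted p = 0.00908) on 32 to 96 reads. SAA2 rose from 1.01 ± 0.0934 to 2.11 ± 0.00416 FPKM (SD, n = 3, log2 fold change 0.63, adjusted p = 2.41e-04) on 28 to 80 reads. CRP, C-reactive protein, the best known acute phase marker, had at most 1 read in any library, and the constitutive SAA4 had 1 to 4 and did not pass with the lowered filter (adjusted p = 0.513).

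ORM1 and ORM2 encode the 2 forms of alpha-1-acid glycoprotein and lie 3393 bases apart. ORM1 was 187.5, 153.3 and 122.6 FPKM in the control libraries and 124.6, 99.3 and 119.5 FPKM in the sh-CLGN libraries. The groups overlapped, since sh-CLGN replicate 1 lay above sh-NC replicate 3. The call of ORM1 (log2 fold change -0.41, SE 0.150, limma adjusted p = 0.0397) was lost without sh-NC replicate 1 (-0.26, adjusted p = 0.104), without sh-NC replicate 2 (adjusted p = 0.0872), without sh-CLGN replicate 2 (adjusted p = 0.124) and without sh-CLGN replicate 3 (adjusted p = 0.0604). It was also lost with TPM (-0.29, adjusted p = 0.0833), total reads (-0.22, adjusted p = 0.208), quantile normalization (-0.09, adjusted p = 0.597), the GC trend removed (-0.22, adjusted p = 0.199), limma without trend (adjusted p = 0.0534), no filter (adjusted p = 0.135) and a filter at a mean of 0.1 FPKM (adjusted p = 0.0784). ORM2 was 90.8 ± 4.62 and 86.7 ± 2.20 FPKM (SD, n = 3) and did not pass at -0.07 (95% interval -0.19 to 0.06, adjusted p = 0.299). The copies are near-identical, so the split of reads between them is uncertain.

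The inter-alpha-trypsin inhibitor family was dominated by AMBP and ITIH2. AMBP (ENSG00000106927; chromosome 9, 114060127 to 114078472, minus strand) encodes the precursor of alpha-1-microglobulin and of bikunin, the light chain of these inhibitors. It was 1582, 1473 and 1378 FPKM in the control libraries and 828.6, 802.4 and 816.2 FPKM in the sh-CLGN libraries. Every sh-CLGN library lay below every control, at 55.2% of the control mean (log2 fold change -0.85, SE 0.0630, limma adjusted p = 1.81e-05). ITIH2, a heavy chain that is joined to bikunin, was 260.6 ± 8.36 and 253.5 ± 3.30 FPKM (SD, n = 3), with overlapping libraries, and did not pass at -0.04 (95% interval -0.14 to 0.07, adjusted p = 0.482). The ratio of AMBP to ITIH2 was 6.27, 5.65 and 5.12 in the control libraries and 3.32, 3.15 and 3.19 in the sh-CLGN libraries. By FPKM, light and heavy chain transcripts thus came closer in each sh-CLGN library. The other heavy chains were scarce. ITIH1 had 51 to 57 reads in the controls and 8 to 26 in sh-CLGN, ITIH3 had 24 to 28 and 7 to 19, and ITIH4 had 1 to 5 in all. With the filter lowered to a mean of 0.1 FPKM, ITIH1 passed at -0.54 (limma adjusted p = 0.00486) and ITIH3 did not at -0.20 (adjusted p = 0.0874).

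**Figure D4:**
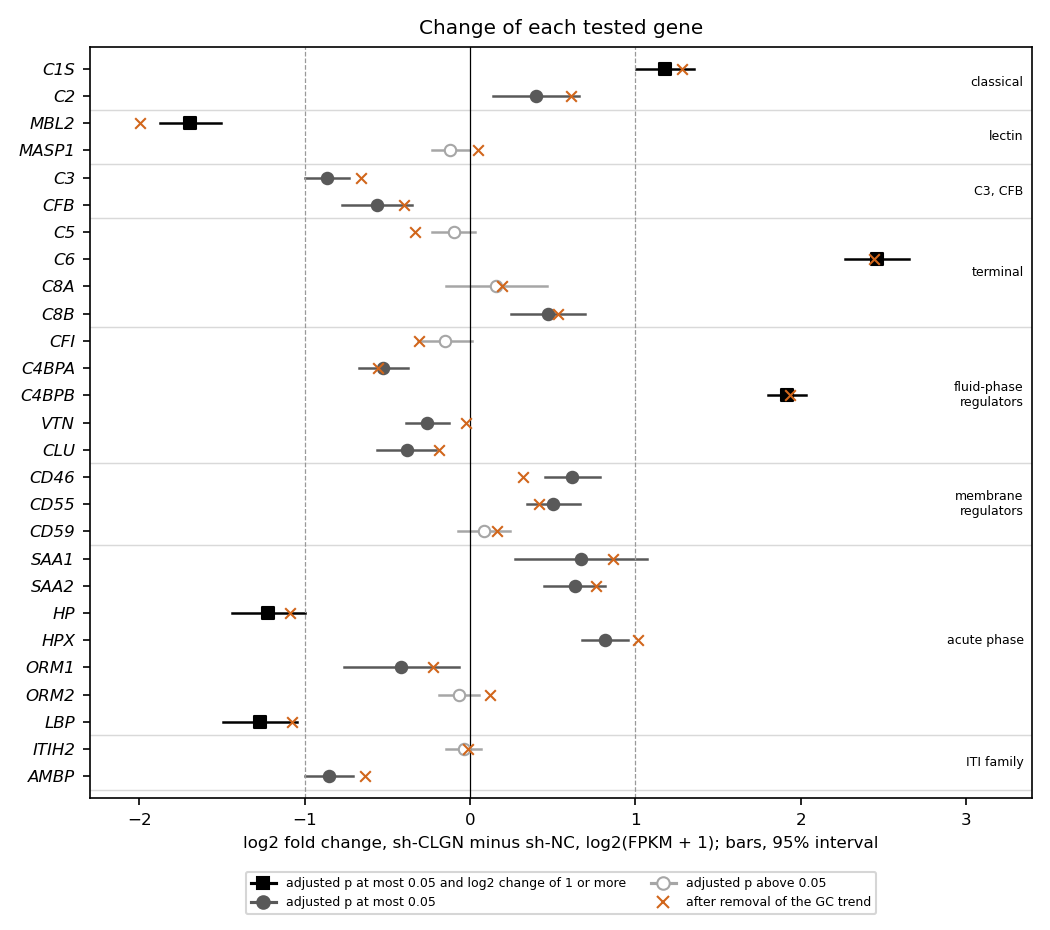
Log2 fold change of each of the 27 tested genes, sh-CLGN minus sh-NC on log2(FPKM + 1) (x axis), by gene and role (y axis), with the 95% interval as a bar and the value after removal of the GC trend as a cross. C6, C4BPB and C1S lie beyond 1 and MBL2, LBP and HP beyond -1 with and without the GC trend, and the cross of MASP1 (0.05) and that of ORM2 (0.12) lie on the other side of 0.

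Across all tested genes the log2 fold change went down with the GC content of the transcript (Spearman rho = -0.32 over 13068 genes that share the 6 libraries, given as a description). The tested complement and acute phase genes had a median GC content of 50.2%, and all tested genes 49.5%. After removal of the trend, C6 stood at 2.45, C4BPB at 1.94, C1S at 1.28, MBL2 at -2.00, LBP at -1.07 and HP at -1.09, and HPX moved from 0.82 to 1.02.

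Several abundant genes with small differences depended on how libraries were scaled. C5, ITIH2, MASP1 and ORM2 were below 0 with the deposited FPKM and above 0 with TPM, with total reads and with quantile normalization. ITIH2 passed as higher with total reads (adjusted p = 0.0215) and quantile normalization (adjusted p = 0.00258). ORM2 passed as higher with total reads (adjusted p = 0.0481), quantile normalization (adjusted p = 0.00445) and the GC trend removed (adjusted p = 0.0250). VTN passed as higher with quantile normalization (adjusted p = 0.0193). C3 and AMBP stayed below 0 and passed the test in each of these, between -0.90 and -0.52 for C3 and between -0.91 and -0.64 for AMBP over all alternatives.

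**Figure D5:**
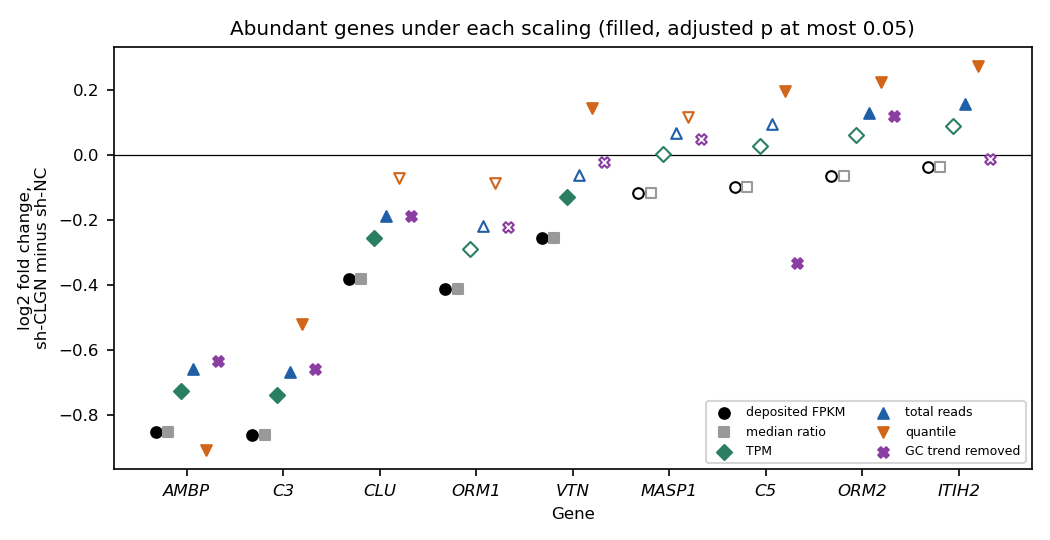
Log2 fold change, sh-CLGN minus sh-NC (y axis), of 9 abundant genes (x axis) under 6 scalings (marker shape), filled where the adjusted p was at most 0.05. AMBP, C3, CLU and ORM1 lie below 0 under all 6, whereas VTN lies at 0.14 under quantile normalization and MASP1, C5, ORM2 and ITIH2 lie on both sides of 0.

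A further 4 lists gave the rest of the pathway, and their counts stand beside 26.7% higher and 39% lower over all tested genes. Of 31 other complement genes, 10 were tested, 5 were higher and 4 lower at the adjusted p, and 2 higher and 1 lower passed both thresholds (median log2 fold change 0.11, against -0.08 for all genes). The largest differences were those of C7, the terminal subunit that follows C6 in the complex, from 0.748 ± 0.149 to 6.50 ± 0.406 FPKM (SD, n = 3, log2 fold change 2.10), and SUSD4, a membrane protein with complement control domains, from 0.730 ± 0.0910 to 4.07 ± 0.507 FPKM (1.55). Both were under 1 FPKM in every control library and passed the filter through sh-CLGN only, so they had to differ, and they are the 2 higher genes past both thresholds. C7 lies on the same chromosome as C6 and C9, chromosome 5, at 40909252 to 40982939. Of 17 other positive acute phase genes, 13 were tested, 3 were higher and 8 lower (median -0.40). Among the lower genes, CD14 was under 1 FPKM in every sh-CLGN library. It passed the filter through sh-NC only, so it had to differ. CP, the copper carrier ceruloplasmin, fell from 26.7 ± 1.21 to 9.93 ± 0.595 FPKM (SD, n = 3, log2 fold change -1.34, adjusted p = 2.52e-06). Of 10 negative acute phase genes, whose proteins go down in inflammation, 9 were tested, 3 were higher and 5 lower (median -0.39), led by GC, the vitamin D-binding protein (-2.37, adjusted p = 1.69e-06), and TF, transferrin (-1.62, adjusted p = 4.15e-07). All 22 genes of cytokine signalling and of liver transcription factors were tested, 4 were higher and 13 lower (median -0.36), with JAK1, the kinase of the interleukin-6 receptor, at -1.13 (adjusted p = 4.38e-06) and CEBPD, C/EBP delta, at -1.03 (adjusted p = 2.61e-05) the largest. With the GC trend removed CEBPD stood at -0.68. The median was below that of all genes for both positive and negative acute phase lists.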

How the data were processed

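RNA of 6 Hep-G2 libraries was sequenced after a NEBNext Ultra preparation. The authors deposited FPKM values for each gene and library beside its length and position. The submitters' processing notes name HISAT2 2.0.5, featureCounts and GRCh38, and all 58735 gene positions equalled those of GENCODE 29. The strand setting, the handling of multi-mapped reads and the authors' test are not given in the sources used here. FPKM times length gave whole reads for 100% of values (tolerance 0.01 of a read). The floor was set at 3 reads and covers counting error only.

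Genes that reached 1 FPKM in 3 or more of the 6 libraries were tested with limma 3.58.1 (R 4.3.3), eBayes with intensity trend, on log2(FPKM + 1), without covariates, two-sided, with Benjamini-Hochberg adjustment over 13074 genes. Calls needed an adjusted p of at most 0.05 and, for both thresholds, a log2 fold change of 1 or more in size. The procedure was tested on simulated data. The members, the 8 role groups and the 4 lists were chosen with earlier results of these data known. Values per library are given for members past both thresholds and, in each role group, for the most abundant member and that with the largest absolute log2 fold change. The 2 genes with the largest difference are named for each list, and a gene that meets this rule is not reported here. C4BPA, the other lectin recognition genes and the genes in the other observations were chosen after their values were seen. Alternatives were a smaller pseudocount (0.1), no filter or one at a mean of 0.1 FPKM, median-ratio, TPM, total-read and quantile scaling, removal of the GC trend (lowess span 0.3, GENCODE transcripts), limma without trend, voom on recovered reads, a replicate block, and omission of single libraries. Promoter sequences came from RefSeq on GRCh38.p14, and Python 3.11.15, pandas 2.3.3 and matplotlib 3.10.9 were used.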

Additional observations from a re-analysis of the deposited data

How the results depend on the processing

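C6, C4BPB, C1S, MBL2, LBP and HP kept their direction and passed both thresholds under all 11 alternatives and without each library. Log2 fold changes ran from 1.90 to 2.18 for C4BPB, 1.11 to 1.48 for C1S, -2.25 to -1.55 for MBL2 and -1.46 to -1.06 for HP. They ran from 2.40 to 4.30 for C6 and from -2.79 to -1.07 for LBP. C6 and LBP passed the filter on low values through 1 group only and so had to differ. Of the 27 tested genes, 17 kept direction and side of the threshold throughout. The counts at the adjusted p ran from 10 to 14 higher and 8 to 10 lower, and those past both thresholds from 3 to 4 higher and 3 lower. Without each library in turn they were 10 higher, 9 to 10 lower, 3 and 3. The value turned positive for C5 with TPM (0.0264), total reads (0.0931) and quantile normalization (0.195), for ITIH2 with these (0.0883, 0.156 and 0.272), for MASP1 with these (0.0024, 0.0671 and 0.115) and with the GC trend removed (0.0478), for ORM2 likewise (0.0610, 0.128, 0.224 and 0.119), and for VTN with quantile normalization (0.143), and the cause was not tested. TPM and total reads scale each library by a constant and moved the median of all genes by 0.11 and 0.16. Relative to that shift, abundant genes return to about their deposited values by construction. These scalings therefore cannot decide the sign of C5, ITIH2, MASP1 and ORM2. Quantile normalization moved that median by 0.064, and the values of all 4 stayed above it. Removal of the GC trend moved it by 0.072, and ORM2 stayed above it. Calls were gained by C5, ITIH2, ORM2, CFI, CD59 and MASP1 and lost or turned by ORM1, C2, CLU and VTN under the settings named with each gene. Over all genes, 3496 were higher and 5102 lower at the adjusted p with deposited FPKM, 4285 and 3923 with TPM, 4956 and 3421 with total reads, and 4002 and 4238 with quantile normalization. Past both thresholds these were 404 and 417, against 925 and 681 with a pseudocount of 0.1, 1002 and 424 with TPM, 605 and 235 with total reads, 989 and 733 with voom and 477 and 244 with the GC trend removed. Same-numbered libraries of the groups did not deviate together (correlations of -0.02, -0.05 and -0.15), so the numbers were not taken as pairs. The fit with a replicate block gave 10 higher and 10 lower genes, and 3 and 3 past both thresholds. Depth limits the genes under the filter, of which C9, CFHR3 and CRP had at most 3 reads in any library.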

Other observations

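Fibrinogen, a positive acute phase protein, is built from 3 chains whose genes lie side by side on chromosome 4, and their transcripts moved in different directions. FGA fell from 311.0 ± 4.15 to 174.0 ± 5.98 FPKM (SD, n = 3, log2 fold change -0.83, limma adjusted p = 5.58e-06). FGB rose from 280.4 ± 13.5 to 463.1 ± 24.1 FPKM (0.72, adjusted p = 2.98e-05), and FGG rose from 125.1 ± 2.73 to 158.2 ± 5.0 FPKM (0.34, adjusted p = 3.79e-04). After removal of the GC trend the values were -0.85 for FGA, 0.66 for FGB and 0.08 for FGG. The negative acute phase genes were as mixed. Albumin (ALB) stood at 2007 ± 70.9 FPKM in sh-NC and 1076 ± 27.7 in sh-CLGN, and transthyretin (TTR) at 182.4 ± 14.9 and 273.6 ± 12.1 FPKM (SD, n = 3).

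In the signalling list, IL6R, the interleukin-6 receptor, rose from 4.40 ± 0.0731 to 7.42 ± 0.398 FPKM (SD, n = 3, log2 fold change 0.64, limma adjusted p = 5.08e-05). SOCS3, the feedback inhibitor of that receptor, fell from 4.93 ± 0.647 to 1.91 ± 0.205 FPKM (-1.02, adjusted p = 6.25e-05), and with the GC trend removed it stood at -0.69. These genes were picked after their values were seen.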
